A study of Homo sapiens with 9 samples.

Results

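The 10 genes described here serve the NRF2 antioxidant response, iron storage and cystine import: NFE2L2, SLC7A11, HMOX1, NQO1, GCLM, GCLC, TXNRD1, FTH1, FTL and TFRC. They were picked by gene symbol, and all 10 were found among the 26485 symbols of the count table and passed the filter on low counts that left 12845 genes. RNA was sequenced from MV4;11, an acute myeloid leukaemia cell line, in 3 genotypes of MYC with 3 libraries each. The genotypes were parental cells, cells with MYC mutated at K148Q and cells with MYC mutated at K148R, and all were untreated and grown in RPMI medium. In K148Q the lysine is glutamine, often used as a stand-in for an acetylated lysine, and in K148R it is arginine, which cannot be acetylated at that place. How the mutations were made, and whether each mutant line is 1 clone, the sources used here do not say.

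NFE2L2 encodes NRF2, a transcription factor that the adaptor KEAP1 marks for destruction until oxidants or electrophiles disable KEAP1. Stable NRF2 pairs with small MAF proteins on antioxidant response elements and switches on genes for glutathione synthesis, thioredoxin reduction, quinone detoxification, haem breakdown and ferritin. Iron is also controlled after transcription: iron regulatory proteins bind hairpins called iron-responsive elements, and in iron-poor cells they block translation of ferritin mRNA and shield the mRNA of the transferrin receptor from decay. MYC itself has been reported to repress FTH1 and to activate TFRC.

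Total counts ran from 13747087 to 18938391 per library, and levels are given as CPM, a count divided by its TMM-scaled library size and set to a common depth, with mean ± SD of n = 3 libraries. MYC was at 333.4 ± 4.05 CPM in parental cells, 472.7 ± 29.5 in K148Q and 378.8 ± 3.38 in K148R cells, and gene counts do not check the mutated codon. Libraries of a group differed little beyond counting error in parental cells (chi-square per degree of freedom 1.55 to 1.62) and more in K148R cells (3.03 to 5.22). K148Q replicate 3 stood apart from its partners (17.8 and 18.3, against 1.35 between replicates 1 and 2). Separate cultures are not named for the 3 libraries of a genotype, so p-values measure only the spread between these libraries, which may be technical. Of 11 myeloid leukaemia markers, 10 were at 1 CPM or more in every parental library. The summed level of 16 monocyte and macrophage markers was 386 to 391 CPM in parental cells, 870 to 933 in K148Q and 2340 to 2370 in K148R libraries, so it moved with the genotypes. Of the 8 of these that were tested, 6 rose in K148Q and 8 in K148R cells, with a median log2 fold change of 1.22 and 5.14. Over all genes tested, 27% rose in K148Q and 37.8% in K148R cells. Only 4 of the 16 were at 1 CPM or more in every parental library, against 8 in K148R libraries. Markers such as S100A8 thus passed the filter on low counts only through the mutants, which favours rises among those tested. LYZ was at 160.8 ± 2.88, 490.9 ± 64.5 and 1649 ± 21.5 CPM in parental, K148Q and K148R cells, on average the larger part of the sum in both mutants. S100A8 was at 0.01986 ± 0.0344, 3.036 ± 0.2 and 70.55 ± 1 CPM. CD14 and FCGR3A stayed under 1 CPM on average in each genotype and MRC1 had no counts. Of the 16 markers, 4 had no counts in parental libraries, 6 in those of K148Q (CD14 and VCAN among them) and 1 in those of K148R. The sum over 14 erythroid markers was 20 to 20.3, 16.9 to 21.3 and 7.18 to 9.09 CPM, nearly all of it EPOR, and haemoglobin and glycophorin genes were at or near 0. The sum over 10 T, B and NK cell markers was 51.5 to 58.6, 25.2 to 28 and 29.8 to 30.7 CPM, mostly NKG7, and that over 8 stromal and epithelial markers was 109 to 114, 215 to 222 and 184 to 195 CPM, mostly PECAM1. What part these marker changes have in the results below was not tested. In bulk RNA, fewer cells of a type and less RNA per cell cannot be told apart.

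The sequences that tie FTH1, FTL and TFRC to iron regulation are their iron-responsive elements, and a search of GENCODE v29 transcripts found them in these 3 of the 10 genes. The pattern searched was a C, 5 bases, the loop CAGTGN and 5 bases able to pair with the first 5, within an untranslated region of the strand of the transcript. Of 19669 protein-coding genes, 0.854% held a match in any of their transcripts, whereas 1 transcript was searched for each of the 10 genes. The elements are shown 5′ to 3′ in DNA letters with the loop in capitals, on GRCh38, minus strand for FTH1 and TFRC and plus strand for FTL.
FTH1, 5′ untranslated region, chr11:61967574-61967602: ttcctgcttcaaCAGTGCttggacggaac
FTL, 5′ untranslated region, chr19:48965335-48965363: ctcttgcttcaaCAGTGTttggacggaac
TFRC, 3′ untranslated region, chr3:196050979-196051007: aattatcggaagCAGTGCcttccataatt
TFRC, 3′ untranslated region, chr3:196050575-196050603: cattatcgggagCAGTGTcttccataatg
TFRC, 3′ untranslated region, chr3:196050510-196050538: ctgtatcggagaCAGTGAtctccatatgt
TFRC, 3′ untranslated region, chr3:196050463-196050491: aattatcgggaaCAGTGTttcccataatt
Each ferritin transcript carried 1 match near its start and the TFRC transcript carried 4 in its 3′ untranslated region. Forms outside this pattern and other transcripts of the 10 genes were not searched, so further elements may exist.

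Promoter windows, running from 250 bases before to 50 after a RefSeq start (GRCh38.p14), were matched for 7 of the 10 genes in 9 windows. No window was matched for SLC7A11, HMOX1 and FTH1. The core of the antioxidant response element, TGACNNNGC on either strand, was found for 2 of the 7 genes, GCLM and TXNRD1, and is held by 13.3% of all 35116 windows. Elements outside these short windows were not searched, so the lack of a match does not mean that a gene has no such element. All matches found in the 9 windows are shown. Capitals mark the match.
GCLM, 34 bases upstream, chr1:93909444-93909476, minus strand: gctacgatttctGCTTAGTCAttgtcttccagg
TXNRD1, first start, 99 bases upstream, chr12:104215668-104215700, plus strand: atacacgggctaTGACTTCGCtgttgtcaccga
TXNRD1, first start, 8 bases upstream, chr12:104215759-104215791, plus strand: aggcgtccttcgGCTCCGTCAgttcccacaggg
TXNRD1, second start, 102 bases upstream, chr12:104286918-104286950, plus strand: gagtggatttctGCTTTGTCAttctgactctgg
Neither the E-box CACGTG, which MYC binds (in 7.26% of all windows), nor the stress element TGATGNAA, read by ATF4 (3.62%, both strands), was found in the 9 windows, which says only that these letters are not there.

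Relative to parental cells, both mutants had more NFE2L2 mRNA and less of the NRF2 targets NQO1 and TXNRD1. The cystine transporter gene SLC7A11 went from about 1 CPM to 79.31 CPM in K148R cells, HMOX1 rose in K148R cells, FTL rose in both mutants and FTH1 moved in opposite directions. A gene is said to rise or fall where edgeR's quasi-likelihood test gave a Benjamini-Hochberg adjusted p under 0.05 over all 12845 genes. In K148Q against parental cells 4 of the 10 genes rose and 4 fell, where 53.3% of all genes passed the test, 27% higher and 26.3% lower. In K148R against parental cells 6 rose and 2 fell, where 75.1% of all genes passed, 37.8% higher and 37.3% lower. In K148R against K148Q cells 7 were higher and 2 lower, where 71% passed, 36.6% higher and 34.5% lower. With so large a background little can be read from the number that passed, and the sizes and directions follow gene by gene. Where genotypes are said below not to overlap, this only describes the gene, as the share over all genes was not counted. The median log2 fold change of the 10 genes was -0.11, 0.46 and 0.48 in the 3 comparisons, beside -0.01, 0.00 and 0.02 over all genes, and the first was -0.04 without K148Q replicate 3. The 10 genes were chosen with earlier results of these data known, so their medians describe them and test nothing. Both comparisons with parental cells use the same parental libraries.

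**Figure D1:**
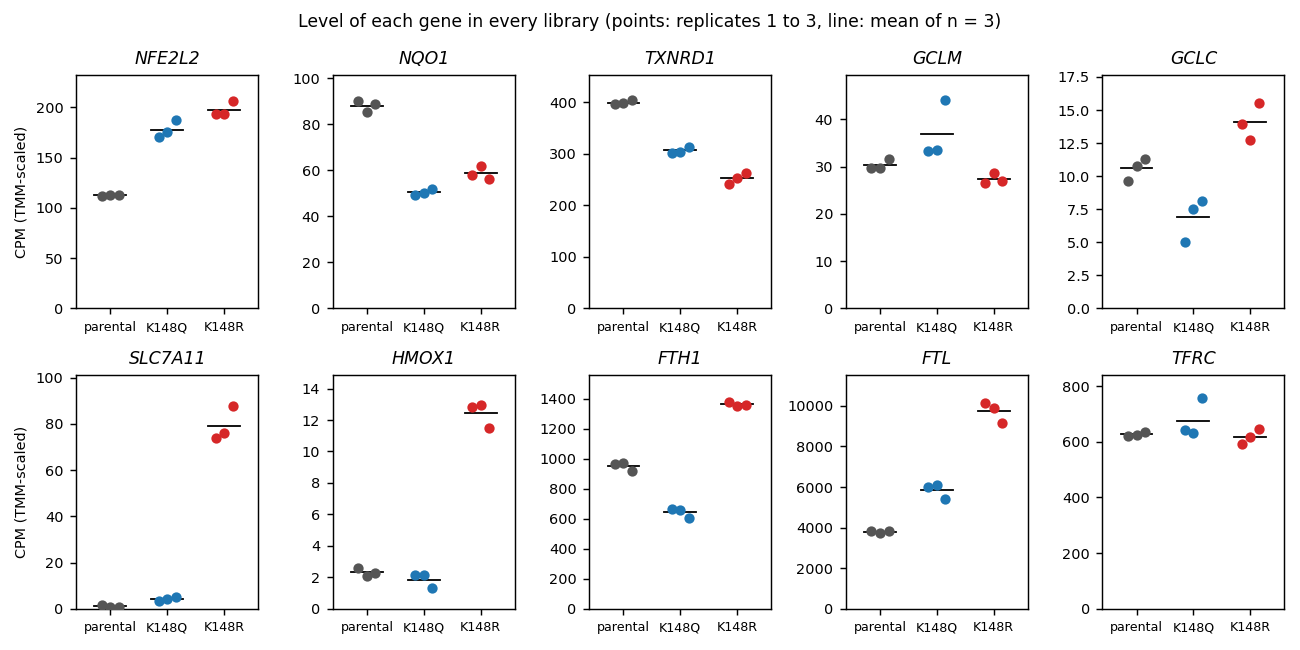
Each panel plots 1 gene, with CPM on TMM-scaled library sizes on the y axis from 0 and the 3 genotypes on the x axis; points are libraries (replicates 1 to 3 from left to right) and lines are means of n = 3. SLC7A11 and HMOX1 are highest in the K148R libraries, FTL is higher in both mutants, and the 3 genotypes overlap for TFRC.

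NFE2L2 (ENSG00000116044, chr2:177227595-177392697, minus strand) was at 111.7, 112.5 and 113.1 CPM in the parental libraries, 170.6, 175.3 and 186.9 in those of K148Q and 192.9, 193.1 and 206.7 in those of K148R. Every mutant library lay above every parental one, and every K148R library lay above the K148Q libraries. The log2 fold change was 0.66 in K148Q (SE 0.0557, edgeR adjusted p = 2.1e-07) and 0.81 in K148R cells (SE 0.0556, adjusted p = 4.6e-09). The difference between the mutants was small, at 0.15 (SE 0.0548, adjusted p = 0.021), and did not pass without K148Q replicate 1 (adjusted p = 0.11), K148Q replicate 2 (0.068) or K148R replicate 3 (0.096), with total counts as the scale (0.15), without a filter on low counts (0.082) or with only the mutants fitted (0.12). The annotated span of NFE2L2 overlaps AGPS on the other strand, and which strand was counted is not known.

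NQO1 and TXNRD1, among the best known targets of NRF2, fell in both mutants. NQO1 (ENSG00000181019, chr16:69706996-69726951), a quinone reductase, was at 90.26, 85.34 and 88.59 CPM in the parental libraries, 49.27, 50 and 51.83 in those of K148Q and 57.9, 61.88 and 56.05 in those of K148R. Its log2 fold change was -0.81 in K148Q (SE 0.0643, edgeR adjusted p = 1.2e-07) and -0.59 in K148R cells (SE 0.0636, adjusted p = 8.1e-07). TXNRD1 (ENSG00000198431, chr12:104215779-104350305), the cytosolic thioredoxin reductase, was at 395.8, 398.2 and 404.3 CPM in the parental libraries, 302.1, 303.1 and 314.1 in those of K148Q and 241.1, 253.3 and 262.2 in those of K148R. For TXNRD1 the 3 genotypes formed separate steps, with log2 fold changes of -0.38 in K148Q (SE 0.0482, adjusted p = 1.3e-05) and -0.66 in K148R cells (SE 0.0484, adjusted p = 9.7e-09). The mutants differed from each other for both genes: NQO1 was higher in K148R than in K148Q cells by 0.22 (adjusted p = 0.0077, or 0.054 when only the libraries of the mutants were fitted) and TXNRD1 lower by 0.28 (adjusted p = 0.00011).

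SLC7A11 (ENSG00000151012, chr4:138164097-138242349), the cystine-importing chain of system xc-, showed the widest change of the 10 genes. It was low in parental cells, at 24, 13 and 14 counts or 1.447, 0.9402 and 0.8341 CPM. K148Q libraries had 51, 64 and 85 counts (3.324, 4.378 and 5.269 CPM) and K148R libraries 1361, 1124 and 1416 counts (74.06, 76.18 and 87.71 CPM). The 3 genotypes did not overlap. The rise was 3.99-fold in K148Q (log2 fold change 2.00, SE 0.238, edgeR adjusted p = 7.5e-06), 72.9-fold in K148R (6.19, SE 0.175, adjusted p = 2.3e-13) and 18.3-fold between the mutants (4.19, SE 0.142, adjusted p = 1.9e-12).

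Its partner chain SLC3A2, needed to bring the transporter to the membrane, was already abundant and moved far less: 155.7 ± 2.05 CPM in parental cells, 131.8 ± 13.6 in K148Q and 195.5 ± 7.53 in K148R cells (log2 fold change 0.33 in K148R, edgeR adjusted p = 0.00053). SLC3A2 was lower in K148Q cells by 0.24, or by 0.15 without K148Q replicate 3. Of the factors that act on SLC7A11, ATF4, its main activator when amino acids are short, went from 221.2 ± 4.47 to 276.7 ± 11.4 CPM in K148R cells (0.32, adjusted p = 0.00012) and was at 207.5 ± 13.6 in K148Q cells (adjusted p = 0.19). ATF3, an early stress factor, rose from 2.029 ± 0.208 to 18.99 ± 0.63 CPM in K148R cells (3.22). In K148Q cells ATF3 was at 2.917 ± 0.959 CPM (adjusted p = 0.07, or 0.0032 without K148Q replicate 3). CHAC1, an ATF4 target that degrades glutathione, rose from 1.038 ± 0.217 to 5.525 ± 0.351 CPM in K148R cells (2.40), whereas TRIB3, another ATF4 target, was at 11.61 ± 0.416 in parental cells, 22.24 ± 1.71 in K148Q and 9.226 ± 1.22 CPM in K148R cells. TRIB3 rose in K148Q cells (0.94), and its lower level in K148R cells (-0.33) did not pass without K148R replicate 3 (adjusted p = 0.095) or parental replicate 2 (0.052). ATF4 and CHAC1 were chosen after their values were seen.

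The subunits of glutamate-cysteine ligase, which joins cysteine to glutamate in the limiting step of glutathione synthesis, moved against each other. GCLC (ENSG00000001084, chr6:53497341-53616970), the catalytic subunit, was at 9.647, 10.78 and 11.32 CPM in the parental libraries, 5.019, 7.524 and 8.121 in those of K148Q and 13.93, 12.74 and 15.55 in those of K148R. It fell by 0.62 on the log2 scale in K148Q cells (SE 0.158, edgeR adjusted p = 0.0045) and was higher by 0.41 in K148R cells (SE 0.146, adjusted p = 0.019), a call that ended without parental replicate 1 (adjusted p = 0.09) or K148R replicate 3 (0.078). GCLM (ENSG00000023909, chr1:93885205-93909456), the modifier subunit, was at 29.6, 29.73 and 31.63 CPM in the parental libraries, 33.24, 33.52 and 44.08 in those of K148Q and 26.61, 28.74 and 26.94 in those of K148R. Its rise in K148Q cells (0.29, SE 0.104, adjusted p = 0.031) lost its call in 6 of 18 alternatives. It leaned on K148Q replicate 3, without which the value was 0.15 (adjusted p = 0.093). The call also ended without any 1 of the parental libraries (adjusted p 0.052 to 0.097), with upper quartile scaling and with only the groups compared. In K148R cells GCLM did not pass (-0.15, SE 0.105, adjusted p = 0.22), although it was -0.16 with adjusted p = 0.041 once K148Q replicate 3 was left out of the fit. Between the mutants both subunits differed, GCLC by 1.03 (adjusted p = 2.7e-05) and GCLM by -0.43 (adjusted p = 0.0018).

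HMOX1 (ENSG00000100292, chr22:35380361-35394214), which opens the haem ring and frees its iron, had 43, 29 and 38 counts in parental libraries (2.593, 2.097 and 2.264 CPM) and 33, 31 and 21 in K148Q libraries (2.151, 2.121 and 1.302 CPM). K148R libraries had 236, 191 and 186 counts, or 12.84, 12.94 and 11.52 CPM. All K148R libraries lay above the others, while parental and K148Q libraries overlapped. HMOX1 rose 5.33-fold in K148R cells (log2 fold change 2.41, SE 0.162, edgeR adjusted p = 3.9e-09). The difference between K148Q and parental cells was -0.33 (SE 0.215, adjusted p = 0.21), or -0.11 without K148Q replicate 3 (adjusted p = 0.69), and K148R was 2.75 above K148Q cells (SE 0.17, adjusted p = 1.8e-09).

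The ferritin subunits parted in K148Q cells and rose together in K148R cells. FTH1 (ENSG00000167996, chr11:61959718-61967660), the heavy chain with the ferroxidase centre, was at 967.3, 973.4 and 919.9 CPM in the parental libraries, 665.5, 661.5 and 601.9 in those of K148Q and 1379, 1350 and 1358 in those of K148R. FTL (ENSG00000087086, chr19:48965301-48966878), the light chain that helps nucleate the iron core, was at 3843, 3732 and 3839 CPM in the parental libraries, 6013, 6088 and 5389 in those of K148Q and 10160, 9917 and 9160 in those of K148R. No genotype overlapped another for either gene. FTH1 fell by 0.57 on the log2 scale in K148Q (SE 0.0482, edgeR adjusted p = 2.2e-07) and rose by 0.51 in K148R cells (SE 0.048, adjusted p = 1.6e-07). FTL rose by 0.62 in K148Q (SE 0.0517, adjusted p = 2e-07) and by 1.36 in K148R cells, a 2.56-fold rise (SE 0.0524, adjusted p = 6.7e-12). Against K148Q, K148R cells had 2.12-fold more FTH1 and 1.67-fold more FTL. Ferritin genes have many processed pseudogenes: the table listed FTH1P3, with 1 to 5 counts per library, and FTH1P18, FTLP10 and FTHL17 with no counts, so how reads of other copies were assigned is not known. FTH1 also overlaps BEST1 on the other strand, which was at 4.224, 4.666 and 7.42 CPM in parental cells, K148Q and K148R cells.

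TFRC (ENSG00000072274, chr3:196027183-196082189), the transferrin receptor that brings in iron, was the 1 gene of the 10 genes that passed in no comparison. It was at 620, 625.8 and 633.5 CPM in the parental libraries, 640.4, 632.3 and 755.6 in those of K148Q and 592.1, 615.1 and 645.4 in those of K148R. The genotypes overlapped, and the high value of K148Q replicate 3 stood out from its partners. Its log2 fold change was 0.11 in K148Q (SE 0.0628, edgeR adjusted p = 0.16), or 0.03 without that library, and -0.02 in K148R cells (SE 0.0628, adjusted p = 0.77). Between the mutants it was -0.13 (adjusted p = 0.076), or -0.06 without K148Q replicate 3 (adjusted p = 0.13). This difference passed in 5 of 18 alternatives: without K148Q replicate 1 (adjusted p = 0.034) or 2 (0.023), with total counts as the scale (0.018), without a filter on low counts (0.024) and with a replicate block (0.028).

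**Figure D2:**
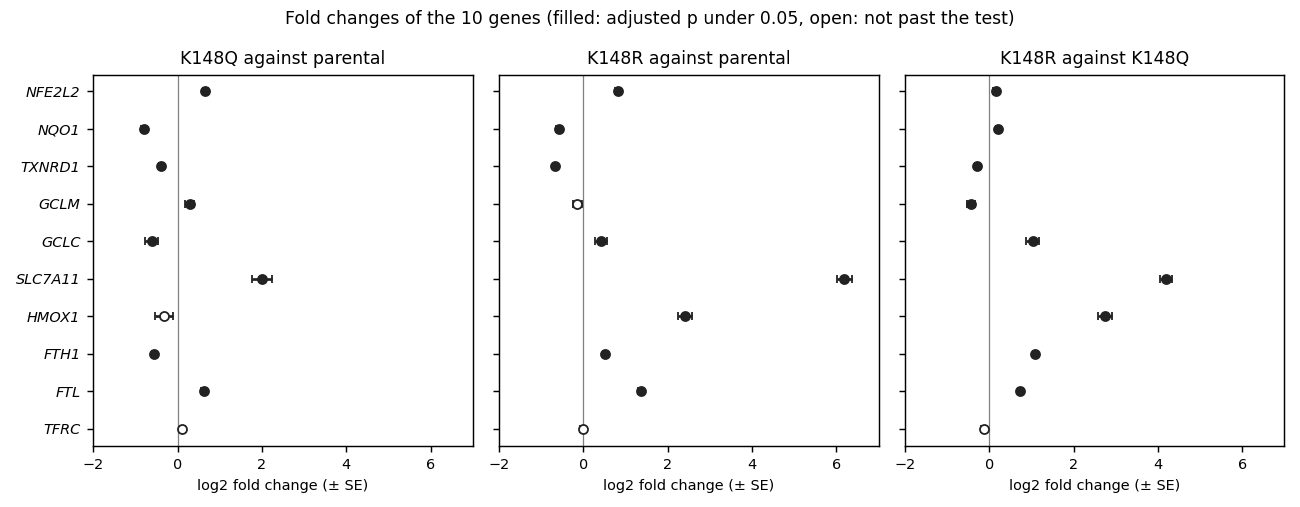
Log2 fold changes (x axis) of the 10 genes (y axis) in the 3 comparisons, with bars of 1 SE from edgeR; filled points have an adjusted p under 0.05 and open points do not. SLC7A11 reaches 6.19 in K148R against parental cells, and TFRC is open in all 3 panels.

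Because levels of different genes depend on transcript length, they were also set per kilobase of exon in GENCODE's basic annotation. In parental cells the order was FTL at 4330 ± 72 CPM per kilobase, FTH1 at 590 ± 18.1, TFRC at 118 ± 1.27, TXNRD1 at 79.2 ± 0.863, NQO1 at 28.2 ± 0.8, NFE2L2 at 24.8 ± 0.156, GCLM at 6.18 ± 0.232, GCLC at 1.66 ± 0.134, HMOX1 at 1.27 ± 0.138 and SLC7A11 at 0.111 ± 0.034. The first 4 places were the same in each genotype, and every rank was the same with all annotated exons in the length. NFE2L2 passed NQO1 in both mutants, at 39.2 ± 1.85 against 16.1 ± 0.421 CPM per kilobase in K148Q and 43.6 ± 1.75 against 18.8 ± 0.952 in K148R cells. In K148Q cells GCLC at 1.08 ± 0.258 and HMOX1 at 1.02 ± 0.264 CPM per kilobase did not differ beyond their spread. In K148R cells SLC7A11, last in the other genotypes, stood seventh at 8.22 ± 0.761 CPM per kilobase, ahead of HMOX1 at 6.83 ± 0.436, GCLM at 5.59 ± 0.233 and GCLC at 2.21 ± 0.221.

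Ratios of counts within a library do not depend on how libraries are scaled, and 3 pairs were compared over the genotypes. These ratios are not corrected for length. The FTH1 to FTL ratio was 0.252, 0.261 and 0.24 in the parental libraries, 0.111, 0.109 and 0.112 in those of K148Q and 0.136, 0.136 and 0.148 in those of K148R. Both mutants thus had less heavy chain per light chain mRNA, although FTH1 itself had moved in opposite directions. The GCLM to GCLC ratio was 3.06, 2.75 and 2.79 in the parental libraries, 6.59, 4.44 and 5.41 in those of K148Q and 1.91, 2.25 and 1.73 in those of K148R, so it went up in one mutant and down in the other. The TFRC to FTH1 ratio was 0.641, 0.643 and 0.689 in the parental libraries, 0.962, 0.956 and 1.26 in those of K148Q and 0.429, 0.456 and 0.475 in those of K148R. This ratio does not stand for iron uptake over storage as a whole. TFRC itself passed in no comparison, and FTL, the more abundant ferritin mRNA, rose in K148Q cells where FTH1 fell. In all 9 comparisons the groups did not overlap, and a two-sided exact permutation test gave p = 0.1 in each, the smallest that 3 against 3 libraries allow. None can therefore pass 0.05. Little can be read from the lack of overlap, as how often other genes or gene pairs separate the genotypes was not counted. A different measure, the share of all genes that passed the edgeR test, was 53.3%, 75.1% and 71% in the 3 comparisons.

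**Figure D3:**
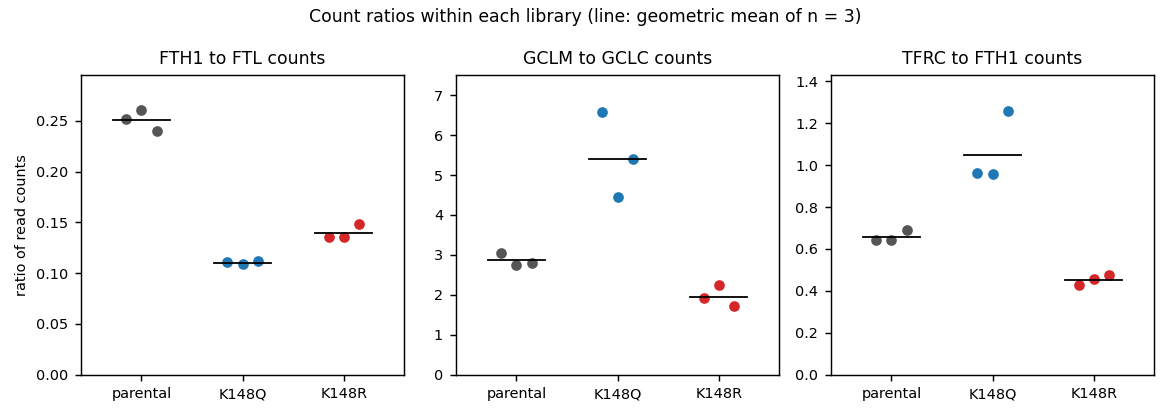
Ratio of read counts (y axis, from 0) for 3 gene pairs in each library of the 3 genotypes (x axis); lines are geometric means of n = 3. FTH1 to FTL is 0.251 in parental cells, 0.11 in K148Q and 0.14 in K148R cells, while the other pairs lie on opposite sides of the parental value in the mutants.

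Other genes of these pathways were taken from lists, which are described by counts and medians; their counts include those of the 10 genes that belong to a list, such as GCLC, GCLM and SLC7A11 in that of glutathione. Of 17 NRF2 regulators and partners 16 were tested, and 7 rose and 4 fell in K148Q cells (median log2 fold change 0.07) and 7 rose and 5 fell in K148R cells (median 0.03, or -0.02 with total counts as the scale). Over all genes 27% rose and 26.3% fell in K148Q cells, and 37.8% rose and 37.3% fell in K148R cells. KEAP1 was at 163.6 ± 2.72 CPM in parental cells, 177.1 ± 16.6 in K148Q and 172.6 ± 5.12 in K148R cells and did not pass (edgeR adjusted p = 0.16 and 0.3). Without K148Q replicate 3, KEAP1 was higher by 0.20 in K148Q cells (adjusted p = 0.00018). SQSTM1 encodes p62, an autophagy receptor that can draw KEAP1 away from NRF2, and it rose from 134.5 ± 3.13 CPM to 188.3 ± 16.6 in K148Q (0.48) and 464 ± 25.2 in K148R cells (1.79). BACH1 (named after its values had been looked at), a repressor of HMOX1 and other NRF2 targets, rose in K148R cells, from 34.94 ± 1.37 to 51.33 ± 2.4 CPM (0.56). BACH1 was at 35.46 ± 6.44 CPM in K148Q cells, a difference of 0.02 (adjusted p = 0.87) whose sign turned with upper quartile scaling. Relatives of NRF2 moved in both mutants: NFE2L1, which drives proteasome genes, rose by 0.76 and 1.02, NFE2, known from megakaryocytes, by 2.12 and 2.04, and NFE2L3 fell by 1.07 and 0.76 in K148Q and K148R cells. The acetyltransferases CREBBP and EP300, which bind NRF2 among many factors, rose too, CREBBP from 45.12 ± 1.31 to 68.49 ± 2.45 and 147.4 ± 2.06 CPM.

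All 15 genes of the thioredoxin and peroxiredoxin list were tested. In K148Q cells 3 rose and 6 fell (median -0.11, or -0.06 with 5 higher and 6 lower without K148Q replicate 3), where 27% of all genes rose and 26.3% fell. In K148R cells 3 rose and 7 fell (median -0.12), where 37.8% of all genes rose and 37.3% fell. PRDX1, a peroxidase and NRF2 target, fell from 604 ± 9.23 to 286.2 ± 12.2 CPM in K148Q (-1.08) and to 209.4 ± 4.87 in K148R cells (-1.53). TXN, the thioredoxin that TXNRD1 reduces, fell from 309.8 ± 4.66 to 232.8 ± 7.31 and 196.1 ± 8.28 CPM, in the same order of genotypes as TXNRD1. TXNIP, which binds and inhibits thioredoxin, fell by 0.36 in K148Q cells and rose by 0.89 in K148R cells, to 479.3 ± 16.9 CPM. Catalase mRNA (CAT) was 517.7 ± 4.14, 606.4 ± 20.4 and 233.1 ± 9.15 CPM in parental cells, K148Q and K148R cells. SRXN1, a direct NRF2 target that repairs peroxiredoxins, also named after a look at its values, was at 46.13 ± 1.19, 50.51 ± 4.34 and 46.17 ± 3.35 CPM and did not pass (adjusted p = 0.19 and 1), although it was higher by 0.21 in K148Q cells without replicate 3 (adjusted p = 0.0067).

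Glutathione genes moved in both directions. Of 28 on the list 25 were tested, and 11 rose and 7 fell in K148Q cells (median 0.15) and 11 rose and 8 fell in K148R cells (median 0.06). The shares over all genes were 27% higher and 26.3% lower in K148Q and 37.8% higher and 37.3% lower in K148R cells. GSS, glutathione synthetase, went from 47.55 ± 0.406 to 65.38 ± 6.33 CPM in K148Q and 33.79 ± 1.65 in K148R cells. GSR, glutathione reductase, went from 60.05 ± 1.22 to 78.74 ± 2.61 and 37.34 ± 2.11 CPM. In the direct comparison K148R cells were lower for GSS by 0.95 and for GSR by 1.07 (edgeR adjusted p = 5.9e-08 and 2.1e-09). Both were chosen after their values were seen. Of the ligase subunits on the same list, GCLM was also lower in K148R than in K148Q cells, by 0.43, but GCLC was higher by 1.03. GGT1, which breaks down glutathione outside the cell, followed the pattern of GSS and GSR, at 46.34 ± 0.722, 83.56 ± 6.97 and 39.49 ± 1.42 CPM. MGST1, a membrane glutathione transferase, rose from 6.992 ± 0.743 to 66.37 ± 8.21 CPM in K148Q and 16.45 ± 1.72 in K148R cells. GLRX, a glutaredoxin, fell in K148Q cells (17.09 ± 1.88 CPM) and rose in K148R cells (58.72 ± 2.32 CPM) from 24.08 ± 1.02 in parental cells. GPX4, the lipid peroxidase that uses the glutathione SLC7A11 helps to supply, was at 307.9 ± 2.55, 342.5 ± 36.8 and 322 ± 16.5 CPM and did not pass against parental cells (adjusted p = 0.073 and 0.41), but was higher by 0.25 in K148Q cells without replicate 3 (adjusted p = 2.4e-06).

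Among NRF2 detoxification and NADPH targets 27 of 29 were tested, and 11 rose and 6 fell in K148Q and 12 rose and 9 fell in K148R cells (medians 0.13 and 0.345). Of all genes, 27% rose and 26.3% fell in K148Q cells, and 37.8% rose and 37.3% fell in K148R cells. PGD, an enzyme of the pentose phosphate pathway that makes NADPH, went from 331.6 ± 6.71 to 686.8 ± 38.3 CPM in K148Q (1.05) and 889.3 ± 12 in K148R cells (1.42). AKR1B1, an aldose reductase, fell from 119.1 ± 2.25 to 48.25 ± 6.26 and 73.12 ± 6.31 CPM. PTGR1 rose in K148Q and fell in K148R cells (11.21 ± 1.9, 17.67 ± 1.11 and 6.419 ± 0.685 CPM in parental cells, K148Q and K148R cells), and ALDH3A2 rose in both (50.16 ± 1.04, 96.42 ± 4.11 and 63.9 ± 2.37 CPM).

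Of 25 genes of iron uptake, storage and export 16 were tested, and the others did not pass the filter on low counts. In K148Q cells 6 rose and 3 fell (median 0.12, or 0.06 with 8 higher and 3 lower of 17 tested without K148Q replicate 3), and in K148R cells 8 rose and 2 fell (median 0.21). Beside this, 27% of all genes rose and 26.3% fell in K148Q cells, and 37.8% rose and 37.3% fell in K148R cells. NCOA4, the receptor that delivers ferritin to lysosomes, rose from 234.3 ± 2.25 CPM to 278.2 ± 15.1 in K148Q (0.25) and 413.3 ± 11.1 in K148R cells (0.82). FTL rose in both mutants too, whereas FTH1 fell in K148Q and rose in K148R cells. STEAP3, which reduces iron released from transferrin, rose in K148Q cells, from 19.28 ± 1.17 to 41.53 ± 3.62 CPM (1.11), and was at 22.68 ± 2.75 in K148R cells (edgeR adjusted p = 0.055, or 0.014 without K148Q or K148R replicate 3). SLC39A14, an importer of iron not bound to transferrin, fell in K148R cells from 204.2 ± 3.39 to 115.1 ± 2.38 CPM (-0.83).

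Of 14 iron sensing genes 13 were tested. In K148R cells 2 rose and 8 fell (median -0.34), beside 37.8% and 37.3% of all genes, and in K148Q cells 2 rose and 5 fell (median -0.12), beside 27% and 26.3%. The iron regulatory proteins, which bind the elements shown above, moved differently. ACO1, which doubles as a cytosolic aconitase, rose from 34.77 ± 0.665 to 64.7 ± 5.41 CPM in K148Q (0.89) and 55.17 ± 1.84 in K148R cells (0.67). IREB2 was at 187.7 ± 4.6, 147.4 ± 25.8 and 170.6 ± 10 CPM, lower by 0.35 in K148Q cells (edgeR adjusted p = 0.0084) and by 0.14 in K148R cells (adjusted p = 0.21, or 0.0018 without K148Q replicate 3). NFS1 and LYRM4, which work together in building iron-sulfur clusters, fell in K148R cells by 1.00 and 0.86.

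**Figure D4:**
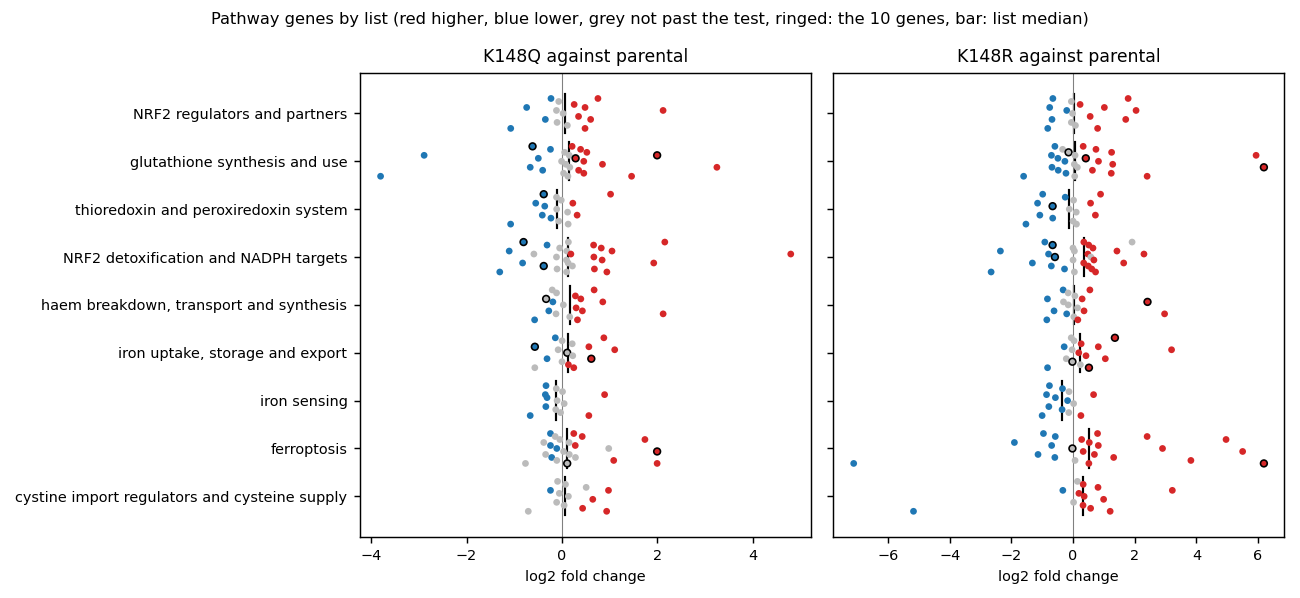
Log2 fold changes (x axis) of the tested genes of each pathway list (y axis) in K148Q and K148R against parental cells; red points rose, blue points fell, grey points did not pass, ringed points are the 10 genes and bars are list medians. Vertical position within a list has no meaning, and medians run from -0.34 for iron sensing to 0.51 for ferroptosis in K148R cells.

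The genes whose pattern over the 9 libraries was most like that of each of the 10 were found by the root mean square difference of centred log2 CPM among 9067 genes of at least 10 CPM on average. For SLC7A11 they were ANXA1 (1.98, 6.16 and 118 CPM in parental cells, K148Q and K148R cells), FCER1A and ENC1, at differences of 0.33, 0.5 and 0.56. Genes near HMOX1 included IFI30 (70.5, 62.8 and 356 CPM), at 0.15, and BTG2, at 0.2. FTH1 was nearest to SEMA4D (74.9, 50.4 and 112 CPM), CD53 and DPYSL2, at 0.05 to 0.059. TFRC was nearest to ARFGEF1, CSNK1G1 and RNF14, at 0.03 to 0.035, each nearly flat like TFRC itself. The nearest gene was ERMP1 for NFE2L2 (0.06), MYL6B for NQO1 (0.058), USP25 for GCLM (0.069), TMEM41B for GCLC (0.15), XRCC5 for TXNRD1 (0.039) and SH3BGRL3 for FTL (0.05).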

How the data were processed

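The authors deposited raw read counts per gene symbol for 9 libraries, without normalisation. Per the submitters' processing notes, FastQC 0.11.7, HISAT2 2.0.5, featureCounts 1.5.2 and GRCh38 were used; for options, annotation and strand of counting the sources used here give nothing. The test was that of edgeR 4.0.16 (R 4.3.3) on these counts: filterByExpr by group, TMM scaling, 1 fit of all 9 libraries with a term per genotype, and the robust quasi-likelihood F test with Benjamini-Hochberg adjustment over 12845 genes. The common biological coefficient of variation was 0.074. Positions and exon lengths came from GENCODE v29 (GRCh38), promoters from RefSeq (GRCh38.p14).

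The 10 genes and the lists were chosen with earlier results of these data known. The rule named the 10 genes, MYC, 3 genes with the smallest p and the most abundant gene that did not pass per list and comparison, and the nearest patterns; the text gives a selection of these, and some are not reported here. Alternatives were DESeq2 1.42.0, limma-voom (limma 3.58.1), other scalings and filters, a replicate block, only the groups compared, and leaving out each library.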

Additional observations from a re-analysis of the deposited data

How the results depend on the processing

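Each of the 30 values (10 genes in 3 comparisons) was recomputed under 18 alternatives, which gave 540 values: 518 kept direction and side of the threshold, 15 lost the call, 6 gained it and 1 changed sign (TFRC in K148R against parental cells, 0.0097 without K148R replicate 1, the range with 1 library left out being -0.053 to 0.0097). The number of the 10 genes that passed ran from 7 to 8, 7 to 9 and 8 to 9 with 1 library left out (K148Q and K148R against parental, K148R against K148Q), and the number of all genes from 5829 to 8402, 9164 to 10473 and 8675 to 9736. With a replicate block 8, 8 and 10 of the 10 genes passed and 7262, 9821 and 9410 of all genes; TFRC was the gene gained (-0.13, adjusted p = 0.028). Same-numbered libraries deviated together with correlations of -0.02 to 0.27 across genes, and differently numbered ones with -0.24 to 0.17. The highest correlation, 0.27, was between K148Q replicate 3 and K148R replicate 3. In 9 of 18 cases a library correlated best with its own number, out of 3 numbers in each case. Whether libraries of the same number were handled together is not known. Fitting only the mutants left 7 of the 10 genes passing between them. Upper quartile scaling gave 44.4% of K148Q calls as higher, against 50.6%.

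Other sign changes touched values near 0 that had not passed. For BACH1 in K148Q cells the values were -0.0195 with upper quartile scaling and -0.127 to 0.101 with 1 library left out. CHAC1 in K148Q cells was -0.0093 with upper quartile scaling and -0.186 to 0.211 with 1 library left out. ALAS1 in K148R cells was -0.0194 with total counts and -0.0085 to 0.0493 with 1 library left out. KEAP1 between the mutants was 0.00066 with upper quartile scaling and -0.129 to 0.0086 with 1 library left out. SRXN1 in K148R cells was -0.0033 with limma-voom, -0.0062 with upper quartile scaling, -0.045 with total counts, -0.024 without a filter, -0.0025 with the replicate block, -0.011 with only the groups compared and -0.059 to 0.0477 with 1 library left out. Among the 10 genes the lowest counts were those of SLC7A11 in parental cells, at 13 to 24 per library, which limits the precision of its fold changes.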

Other observations

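Haem genes other than HMOX1 moved as well. Of 20 on the list, HMOX1 included, 17 were tested, and 8 rose and 3 fell in K148Q and 6 rose and 5 fell in K148R against parental cells (medians 0.16 and 0.03, the second -0.02 with total counts as the scale). Over all genes 27% rose and 26.3% fell in K148Q cells, and 37.8% rose and 37.3% fell in K148R cells. FLVCR2, a transporter first described as a haem importer, rose from 5.638 ± 0.599 to 24.6 ± 2.48 CPM in K148Q and 44.16 ± 1.83 in K148R cells. SLC48A1, which moves haem out of lysosomes, rose in K148Q cells (16.06 ± 0.877 to 25.67 ± 0.712 CPM) and fell in K148R cells (12.85 ± 0.814). Of the enzymes that make haem, ALAS1, the first of the pathway, rose in K148Q cells (82.93 ± 3.52 to 111.6 ± 7.31 CPM) and was at 84.4 ± 1.17 in K148R cells (edgeR adjusted p = 0.72). ABCB10, a mitochondrial transporter tied to haem synthesis, fell from 144.7 ± 2.93 to 97.16 ± 15.8 and 80.24 ± 4.12 CPM.

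Genes of ferroptosis, the death by lipid peroxidation that cystine import and GPX4 hold back, SLC7A11 and TFRC included, had 7 of 23 tested higher and 4 lower in K148Q cells (median 0.11) and 14 higher and 7 lower in K148R cells (median 0.51). Beside this and the cystine list below, 27% of all genes rose and 26.3% fell in K148Q cells. In K148R cells 37.8% of all genes rose and 37.3% fell. ALOX12, a lipoxygenase, fell from 85.29 ± 3.49 to 0.6054 ± 0.135 CPM in K148R cells. ALOX5AP, which presents arachidonic acid to another lipoxygenase, rose from 17.86 ± 0.972 to 59.73 ± 2.31 CPM in K148Q and 252.5 ± 9.41 in K148R cells. SCD, which makes monounsaturated fatty acids, rose from 115.1 ± 5.95 to 459.6 ± 2.91 and 860.1 ± 21.3 CPM. LPCAT3, which puts polyunsaturated chains into phospholipids, rose from 46.78 ± 4.28 to 99.17 ± 6 and 75.47 ± 2.74 CPM. Cystine import regulators and cysteine supply genes had 4 of 13 tested higher and 1 lower in K148Q cells (7 and 2 without K148Q replicate 3) and 9 higher and 2 lower in K148R cells, among them the neutral amino acid transporters SLC1A4 (139.8 ± 2.49 to 277.9 ± 6.86 CPM) and SLC1A5 (350.6 ± 5.28 to 520.4 ± 25.1 CPM).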
